A study of Mus musculus with 30 samples.

Results

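Cathepsins are the proteases of the lysosome, and 10 of them were followed here through 30 mouse brains that carried 0, 1 or 2 intact copies of Tmem106b. The set was chosen by gene name as every row of the deposited expression table named Ctsa, Ctsb, Ctsc, Ctsd, Ctsf, Ctsh, Ctsl, Ctso, Ctss or Ctsz. That gave 10 genes of 34871 in the table, and all 10 were among the 23695 genes tested, whose mean value was above 0. Following general knowledge of mouse brain cell types and not these data, 6 are called broadly expressed below (Ctsd, Ctsb, Ctsl, Ctsf, Ctsa and Ctso) and 4 microglial (Ctss, Ctsz, Ctsh and Ctsc).

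The groups were KO (Tmem106b -/-, no intact copy), HET (Tmem106b +/-, 1 intact copy) and WT (Tmem106b +/+), each of 10 mice aged 8 months. Total RNA from the cerebral hemispheres was sequenced after an extraction that handled all brains together, per the labels' protocols. Each group held 5 females and 5 males, with 6 mice of a cohort numbered 1 and 4 of a cohort numbered 2. The RNA integrity number (RIN) was 9.35 ± 0.49 in KO, 9.23 ± 0.22 in HET and 9.40 ± 0.28 in WT (mean ± SD, n = 10 each). The sources used here give neither the strain, nor the targeted part of the gene, nor the meaning of the cohort number. Each library is a separate mouse, so the errors below are between animals.

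Cathepsins are made as inactive precursors in the secretory pathway, carried to endosomes and lysosomes largely by mannose 6-phosphate receptors, and activated there by removal of their propeptide at acid pH. Most belong to the papain family, which cuts with a cysteine, while cathepsin D uses a pair of aspartates and cathepsin A a serine. In the brain they break down proteins delivered by endocytosis and autophagy, and inherited loss of cathepsin D or cathepsin F in humans causes forms of neuronal ceroid lipofuscinosis, a storage disease of neurons. TMEM106B is a membrane protein of the same late endosomes and lysosomes.

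Values are the deposited log2 RPKM, a read count scaled by the length of the exons and the size of the library. They had passed through conditional quantile normalization, which adjusts each library for gene length and GC content. The verbs rose and fell are kept for changes with an adjusted p under 0.05 in limma's moderated test over all genes tested. Tmem106b RNA averaged 7.53 ± 0.08 in KO, 8.58 ± 0.03 in HET and 9.17 ± 0.07 in WT (mean ± SD, n = 10 each), so the libraries followed their genotype labels. Its fitted change in KO against WT was -68.0%, so RNA counted to the gene remained in KO. Which part of the gene that RNA covers was not tested. Library medians lay between 2.82 and 2.91 and lower quartiles between -1.20 and -0.07. The median correlation of a library with the others ran up to 0.983 and was lowest, at 0.974, in KO replicate 4. Neuron markers were abundant, with a mean over 11 genes of 10.76 ± 0.02 in KO, 10.79 ± 0.03 in HET and 10.77 ± 0.02 in WT. Because whole hemispheres were measured, fewer cells of a type and less RNA per cell cannot be told apart for any value below.

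In these brains the 10 cathepsins spanned a wide range of levels on the per-length log2 scale. Ctsd (chr7:142371148-142388038, mm10, as are all coordinates of genes), the aspartic endopeptidase that starts the breakdown of many proteins, was highest, with a mean of 10.65 over the 30 brains. Ctsb (chr14:63122462-63145919), a cysteine protease that also trims dipeptides from C-termini, followed at 10.52, below Ctsd in 30 of 30 brains. These levels exceeded those of 98.8% and 98.6% of the genes tested.

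Ctss (chr3:95526786-95556403), a cysteine endopeptidase of antigen-presenting cells that keeps its activity at neutral pH, came next at 9.52. Ctsl (chr13:64363214-64370306), a cysteine endopeptidase with broad lysosomal substrates, averaged 9.20. Both kept their places in the order in 30 of 30 brains, so a gene assigned here to microglia was more abundant per length than most of the broadly expressed ones.

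The middle of the order was less sharp. Ctsf (chr19:4855129-4860912), a cysteine protease with an unusually long propeptide, averaged 8.53, and Ctsz (chr2:174427493-174439039), a carboxypeptidase also known as cathepsin X, averaged 8.50. Ctsf was above Ctsz in only 19 of 30 brains and the gap of 0.036 was smaller than the SD of either gene, so their order was not resolved. Ctsa (chr2:164832873-164841032), the serine carboxypeptidase that also shields beta-galactosidase and neuraminidase from degradation, averaged 8.15, and Ctso (chr3:81932601-81956725), a cysteine protease with few known substrates, averaged 6.90.

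Ctsh (chr9:90054152-90076089), an aminopeptidase, and Ctsc (chr7:88278085-88310888), the dipeptidyl peptidase that activates granule serine proteases in blood cells, were lowest at 4.80 and 4.55. Ctsh was above Ctsc in 29 of 30 brains. After genotype, sex, cohort and RIN were taken into account, Ctsb was among the steadiest genes of the table, with 0.017% of genes showing a lower residual SD, and Ctsd stood at 2.79%. For Ctsh and Ctsc 52.1% and 51.6% of genes had a lower residual SD, so a given change was harder to detect in them.

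**Figure D1:**
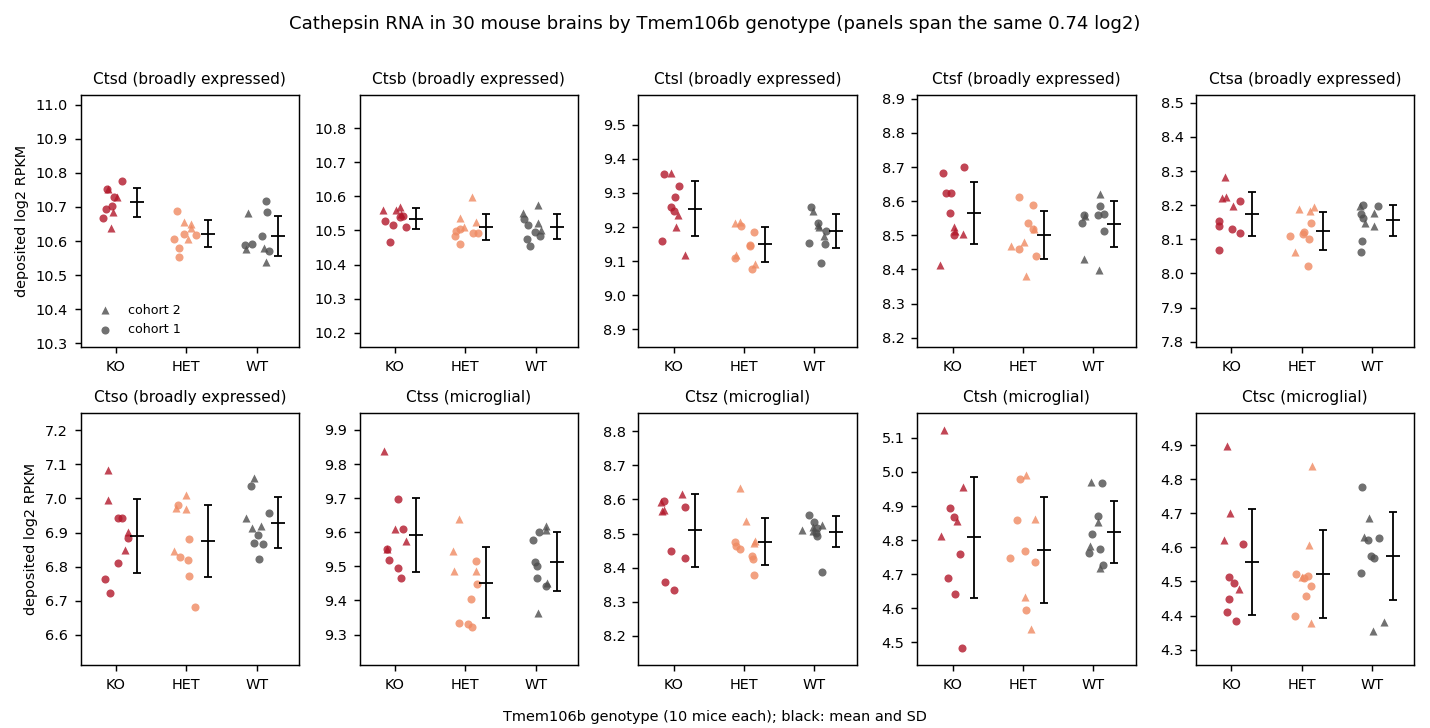
Deposited log2 RPKM of 10 cathepsins, 1 panel per gene with all panels spanning the same log2 range, in KO, HET and WT brains (10 each; triangles cohort 2, circles cohort 1, black mean and SD). All 10 KO brains lie above the WT mean of Ctsd, 10.62, while the ranges of KO and WT overlap for every cathepsin.

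Ctsd was the only one of the 10 cathepsins that rose in KO against WT, a comparison in which 0.279% of all genes rose. Its lowest, median and highest values were 10.64, 10.72 and 10.78 in KO brains, 10.55, 10.62 and 10.69 in HET brains, and 10.54, 10.59 and 10.72 in WT brains. Every KO brain was above the WT mean and 5 of 10 were above every WT brain, although the ranges overlapped. The group means were 10.71 ± 0.04 in KO, 10.62 ± 0.04 in HET and 10.62 ± 0.06 in WT (SD, n = 10 each). In the limma fit, Ctsd RNA was 0.096 ± 0.019 higher in KO than in WT (log2 ± SE, adjusted p = 0.0077), a rise of 6.85% with a 95% interval of 3.996 to 9.79%. A two-sided permutation test of the KO and WT labels with 100000 resamples gave p = 0.0012 for the difference of the plain means. It was run on the same brains only because Ctsd had been called. It used no covariates and was not adjusted for the number of genes, so it is not independent support.

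As a difference of plain means, the KO rise was similar in size in both cohorts, 0.11 in cohort 2 and 0.092 in cohort 1. By the same measure it was 0.13 in males and 0.068 in females. Neither difference passed the test (cohort interaction 0.0081 ± 0.039, adjusted p = 0.975; sex interaction 0.044 ± 0.040, adjusted p = 0.864). Fitted alone, none of these subsets reached the threshold. The fitted change was 0.10 in cohort 2 (adjusted p = 0.992) and 0.093 in cohort 1 (adjusted p = 0.0692). It was 0.12 in males (adjusted p = 0.14) and 0.075 in females (adjusted p = 0.552). Of the 30 fits that left out a brain each, all 30 kept the call, with adjusted p from 0.0048 to 0.019. Without KO replicate 4 the change was 0.098.

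Markers of mature oligodendrocytes and myelin moved with the same groups. Of 13 such genes, 12 fell in KO against WT, where 0.722% of all genes fell. Only Mobp, a structural myelin protein, did not pass the test (-0.11, adjusted p = 0.299). Their mean level ran from 8.68 to 8.94 in KO brains, 8.92 to 9.07 in HET brains and 8.98 to 9.17 in WT brains, so KO and WT did not overlap. With that mean added to the fit, the Ctsd change was 0.21 and its adjusted p 0.258, and since the marker mean separates KO from WT completely, its part and that of genotype cannot be told apart. Ctsd also overlaps part of Ifitm10 (chr7:142325837-142373753) by position. The sources used here do not say whether the counting used strand, so reads from the shared stretch cannot be told apart. Ifitm10 averaged 6.05 over the 30 brains, against 10.65 for Ctsd, and had a change of -0.040 (adjusted p = 0.704).

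The promoter of Ctsd is shown because it is the called cathepsin and because lysosomal genes are known targets of the transcription factor TFEB, which binds an element built around CACGTG. Sequences are RefSeq's for GRCm38.p6, from 250 bases before to 50 after a start site, and 8 of the 10 cathepsins were matched, Ctsb and Ctsh not being in the table. CACGTG, in capitals, reads the same on both strands and began at positions -245 and -98 relative to the Ctsd start site (chr7:142387778-142388077, minus strand).
Ctsd promoter: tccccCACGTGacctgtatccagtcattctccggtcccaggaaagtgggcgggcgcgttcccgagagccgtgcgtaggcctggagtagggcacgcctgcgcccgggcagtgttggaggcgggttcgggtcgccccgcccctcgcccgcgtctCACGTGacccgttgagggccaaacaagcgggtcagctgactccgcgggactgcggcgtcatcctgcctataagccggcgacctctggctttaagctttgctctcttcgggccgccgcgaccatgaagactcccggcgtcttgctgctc

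The letters also occurred in 3 other broadly expressed cathepsins, whose windows around the match are set out for comparison. They lie at chr2:164833749-164833795 (plus strand, Ctsa), chr19:4855074-4855103 (plus strand, Ctsf) and chr13:64370739-64370768 (minus strand, Ctsl).
Ctsa window: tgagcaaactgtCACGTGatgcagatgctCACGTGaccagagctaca
Ctsf window: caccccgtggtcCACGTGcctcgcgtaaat
Ctsl window: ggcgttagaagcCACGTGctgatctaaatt

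CACGTG was thus present for 4 of 8 cathepsins, against 8.09% of 27025 genes with a promoter in the table. The longer form TCACGTG, which contains it and was searched on both strands, was present for Ctsa and Ctsd only, 2 of 8, against 4.29% of genes. No match was found in the windows of Ctso, Ctss, Ctsz and Ctsc, nor in a further Ctsa promoter. That further promoter (chr2:164832622-164832921) is the one at the listed start of Ctsa. The matched Ctsa promoter (chr2:164833523-164833822) lies inside the gene. The matched Ctsl promoter (chr13:64370471-64370770) lies wholly outside the position listed for that gene. The counts therefore include matches away from the listed gene starts. These are matches of letters and not measured binding sites.

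Of the 10 cathepsins, 1 rose and none fell in KO against WT, where limma called 1.00% of all genes in either direction. The other 9 did not pass. At an unadjusted p under 0.05 there were 2, Ctsd and Ctsl, against 2846 of the 23695 genes. The median change was 0.022 over the 10 cathepsins and 0.0061 over all genes tested.

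Among the cysteine endopeptidases, Ctsl had lowest, median and highest values of 9.12, 9.25 and 9.36 in KO brains, 9.08, 9.15 and 9.21 in HET brains, and 9.09, 9.20 and 9.26 in WT brains. Of the KO brains, 8 of 10 were above the WT mean and 4 were above every WT brain. Its change was 0.068 ± 0.024 (95% interval 0.018 to 0.12, adjusted p = 0.216) in KO against WT. Ctsb, the least variable cathepsin, had 10.47, 10.54 and 10.57 in KO brains, 10.46, 10.50 and 10.60 in HET brains, and 10.45, 10.51 and 10.57 in WT brains. The KO range lay within the WT range, and the change was 0.023 ± 0.012 (95% interval -0.0022 to 0.049, adjusted p = 0.474). Ctsb overlaps Fdft1, the squalene synthase gene, whose change was 0.031 (adjusted p = 0.64).

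Ctsf and Ctso showed no change past the threshold. Ctsf had 8.41, 8.54 and 8.70 in KO brains, 8.38, 8.50 and 8.61 in HET brains, and 8.40, 8.56 and 8.62 in WT brains. Although 4 KO brains were above every WT brain, 5 of 10 were below the WT mean, and the change was 0.035 ± 0.028 (adjusted p = 0.682). Ctso had 6.72, 6.89 and 7.08 in KO brains, 6.68, 6.86 and 7.01 in HET brains, and 6.82, 6.92 and 7.06 in WT brains. Its change of -0.039 ± 0.032 (adjusted p = 0.685) was the most negative of the 10, with 3 KO brains below every WT brain and 1 above.

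Ctsa, the serine carboxypeptidase, had 8.07, 8.18 and 8.28 in KO brains, 8.02, 8.12 and 8.19 in HET brains, and 8.06, 8.17 and 8.20 in WT brains. The KO brains were evenly placed about the WT mean, 5 above and 5 below, and the change was 0.021 ± 0.023 (adjusted p = 0.781). Ctsa overlaps Neurl2 and Pltp by position, with changes of 0.10 (adjusted p = 0.453) and -0.012 (adjusted p = 0.936).

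Of the 4 microglial cathepsins, none passed, and their values pointed in both directions. Ctss had 9.47, 9.56 and 9.84 in KO brains, 9.32, 9.47 and 9.64 in HET brains, and 9.36, 9.51 and 9.62 in WT brains. The KO group was above the WT mean in 8 of 10 brains, and the change was 0.077 ± 0.040 (95% interval -0.0055 to 0.16, adjusted p = 0.46). Ctsz had 8.34, 8.57 and 8.62 in KO brains, 8.38, 8.47 and 8.63 in HET brains, and 8.39, 8.51 and 8.55 in WT brains. The KO brains spread to both sides of WT, 6 above every WT brain and 2 below every one, and the change was 0.0040 ± 0.028 (adjusted p = 0.976).

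The low-abundance pair gave wide intervals. Ctsh had 4.48, 4.83 and 5.12 in KO brains, 4.54, 4.76 and 4.99 in HET brains, and 4.72, 4.80 and 4.97 in WT brains, with a change of -0.011 (95% interval -0.14 to 0.12, adjusted p = 0.97). Ctsc had 4.38, 4.50 and 4.90 in KO brains, 4.38, 4.51 and 4.84 in HET brains, and 4.35, 4.60 and 4.78 in WT brains, with a change of -0.019 (95% interval -0.15 to 0.11, adjusted p = 0.945). Both intervals include a change as large as that of Ctsd in either direction. The median change was 0.029 over the 6 broadly expressed cathepsins and -0.0035 over the 4 microglial ones, a difference that was not tested. By position Ctss overlaps the pseudogene Hmgb1-ps5 (0.12, adjusted p = 0.931), Ctsz overlaps Nelfcd (-0.039, adjusted p = 0.609) and Ctsc overlaps Gm26522, which was below the filter.

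**Figure D2:**
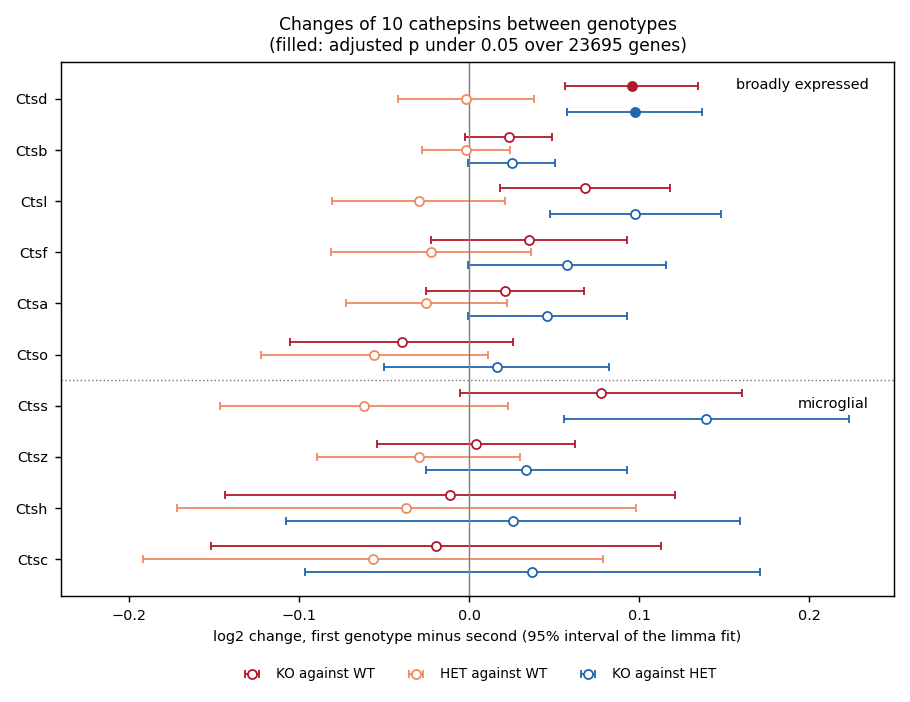
Log2 change with 95% interval from the limma fit for each cathepsin in KO against WT (red), HET against WT (orange) and KO against HET (blue), filled where the adjusted p was under 0.05. Ctsd is filled in KO against WT (0.096) and in KO against HET (0.097), and every interval of HET against WT includes 0.

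Loss of 1 copy gave no call among the cathepsins. In HET against WT limma called 0 of 10, against 0.00422% of all genes, which was Tmem106b alone. At an unadjusted p under 0.05 there were 0 cathepsins and 1497 genes in all. All 10 changes were below 0, as were 11496 of the 23695 genes tested. The cathepsin changes ran from -0.062 in Ctss to -0.0016 in Ctsd, with a median of -0.030, against 0.0022 over all genes. The shared sign did not hold in cohort 2 alone, where Ctsa, Ctsb, Ctsc, Ctsd, Ctss and Ctsz had values above 0. The 95% interval was -0.042 to 0.038 for Ctsd, -0.081 to 0.021 for Ctsl and -0.15 to 0.023 for Ctss.

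Markers of microglia had values mostly on the same side. Of 20 such genes, none of them a cathepsin, 18 had values below 0 in HET against WT and none passed the test. Their mean level ran from 6.64 to 6.89 in KO brains, 6.59 to 6.75 in HET brains and 6.57 to 6.89 in WT brains. With that mean in the fit, 0 of 10 cathepsins were again called in HET against WT and the Ctss value was -0.023, against -0.062 without it.

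KO against HET uses the same KO libraries as KO against WT and the same HET libraries as HET against WT. Its calls and directions are therefore not independent of those above. Ctsd was again the only cathepsin called, 1 of 10 against 0.118% of all genes, at 0.097 ± 0.019 (adjusted p = 0.023). Ctss was 0.14 ± 0.041 higher in KO than in HET (95% interval 0.056 to 0.22, adjusted p = 0.221) and Ctsl 0.098 ± 0.025 higher (95% interval 0.047 to 0.15, adjusted p = 0.135), short of the threshold. Of the 20 microglia markers, 17 had values above 0 in the same comparison, with a median of 0.067, and with their mean in the fit the Ctss value was 0.083 (adjusted p = 0.47). All 10 cathepsin changes were above 0, as were 12265 of the 23695 genes tested. The median was 0.042 over the cathepsins and 0.0028 over all genes. The sign changed for Ctsh in cohort 1 alone, for Ctso in females alone and for Ctsz in males alone. The Ctsd call was lost without HET replicate 3, HET replicate 4, HET replicate 10 or KO replicate 7, where the highest adjusted p was 0.072. It was also lost under 6 of the 13 other settings that kept both cohorts and both sexes.

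As a line over 0, 1 and 2 deleted copies, Ctsd rose by 0.048 ± 0.011 per copy (adjusted p = 0.020) and no other cathepsin passed, 1 of 10 against 1.02% of all genes. The fitted HET value of Ctsd lay -0.0016 from WT, while KO lay 0.097 above HET; departure from a line was not tested.

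**Figure D3:**
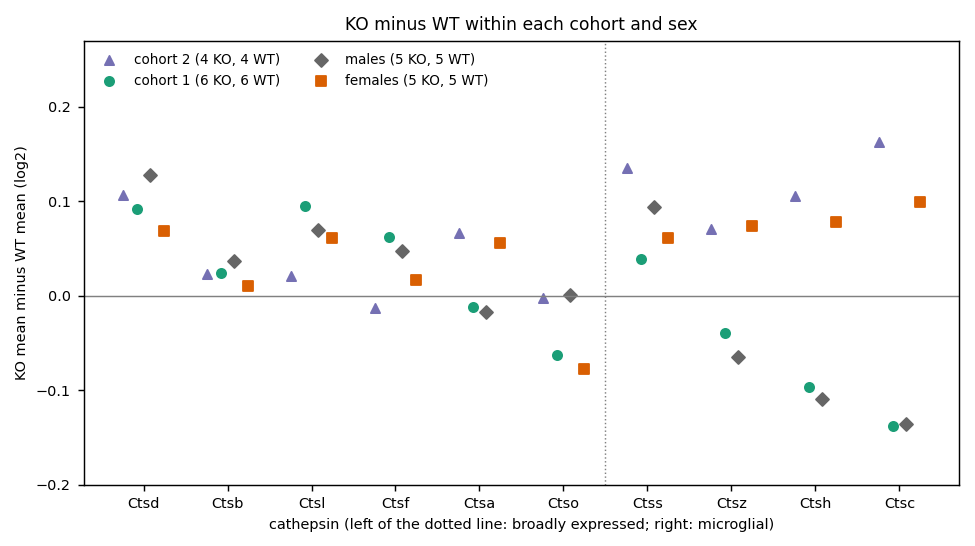
KO mean minus WT mean (log2) of each cathepsin within cohort 2 and cohort 1, and within males and females. The values of Ctsd lie between 0.068 and 0.13 in all 4 subsets, whereas Ctsz, Ctsh and Ctsc have values above 0 in cohort 2 and in females and below 0 in cohort 1 and in males.

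For 3 of the 4 microglial cathepsins the KO minus WT difference had opposite signs in the cohorts. It was 0.16 in cohort 2 and -0.14 in cohort 1 for Ctsc, 0.11 in cohort 2 and -0.097 in cohort 1 for Ctsh, and 0.070 in cohort 2 and -0.040 in cohort 1 for Ctsz. Ctss had values above 0 in both, 0.13 in cohort 2 and 0.039 in cohort 1. Among the broadly expressed members Ctsa (0.067 in cohort 2, -0.012 in cohort 1) and Ctsf (-0.014 in cohort 2, 0.062 in cohort 1) also changed sign. None of the 10 cohort interactions passed, against 0.0338% of all genes. The largest was that of Ctsc, at 0.30 ± 0.12 (95% interval 0.047 to 0.55, adjusted p = 0.50), the only one of 10 with an unadjusted p under 0.05, which 2020 of the 23695 genes had.

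By sex, the KO minus WT difference of Ctsc was -0.14 in males and 0.099 in females, that of Ctsz -0.065 in males and 0.074 in females, and that of Ctsh -0.11 in males and 0.078 in females. The sex interactions were -0.27 ± 0.12 for Ctsc (adjusted p = 0.67) and -0.15 ± 0.053 for Ctsz (adjusted p = 0.564). These were the 2 of 10 with an unadjusted p under 0.05, and limma called 0 of 10 and 0% of all genes, of which 1682 had an unadjusted p under 0.05. Differences of this size between subsets of 4 to 6 brains a group were therefore not resolved from the spread between mice.

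Across all genotypes, cathepsin levels also differed between the cohorts. In cohort 2 against cohort 1, 5 of 10 passed, against 17.5% of all genes. Ctsb, with the smallest p of these, had lowest, median and highest values of 10.50, 10.55 and 10.60 in the 12 brains of cohort 2 and 10.45, 10.50 and 10.54 in the 18 of cohort 1. The rise was 0.046 ± 0.011 (adjusted p = 0.0034).

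Ctso rose by 0.092 (adjusted p = 0.020), Ctsz by 0.080 (adjusted p = 0.023) and Ctsa by 0.061 (adjusted p = 0.029) in cohort 2. Ctsf was the exception and fell by 0.070 in cohort 2 (adjusted p = 0.043). Without KO replicate 4 only Ctsb kept its call, and without KO replicate 3 Ctsb, Ctso and Ctsz did. Ctsd had -0.017 ± 0.016 (adjusted p = 0.526).

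Between the sexes, limma called 0 of 10 cathepsins in males against females, against 0.333% of all genes. At an unadjusted p under 0.05 there were 4, against 2967 of the 23695 genes. Ctso was 0.095 ± 0.026 higher in males (adjusted p = 0.108) and Ctsl 0.054 ± 0.020 higher (adjusted p = 0.238). Ctsd had -0.045 ± 0.016 in males against females (adjusted p = 0.206) and Ctsb -0.031 ± 0.010 (adjusted p = 0.192). Without HET replicate 6, Ctso passed.

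The brains of a genotype differed in their microglia marker mean, and the slope of each cathepsin on that mean was fitted beside genotype, sex, cohort and RIN. None of 10 passed, against 0.0591% of all genes. The 14 genes in that share include P2ry12, Tmem119, Itgam, Trem2, Tyrobp, C1qa, Olfml3 and Gpr34, which are markers averaged into the mean. Their slopes were partly fixed in advance, so the share is not a like background for the cathepsins. Ctss had the steepest slope, 0.68 ± 0.20 log2 per log2 unit (95% interval 0.27 to 1.08, adjusted p = 0.207), with 0.70 in cohort 2 and 0.51 in cohort 1. Ctsc had 0.47 ± 0.37, Ctsz 0.35 ± 0.15 and Ctsh 0.24 ± 0.37. By cohort the slope of Ctsz was 0.057 ± 0.18 in cohort 2 and 0.67 ± 0.23 in cohort 1. The difference between these slopes was not tested.

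The broadly expressed cathepsins were spread about 0 in the same fit. Ctso had a slope of 0.29 and Ctsa 0.24, Ctsd 0.099 and Ctsb 0.065, while Ctsl had -0.034 and Ctsf -0.29, with a 95% interval of -0.61 to 0.027. With the microglia marker mean in the fit, the Ctsd change in KO against WT was 0.093 (adjusted p = 0.011).

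**Figure D4:**
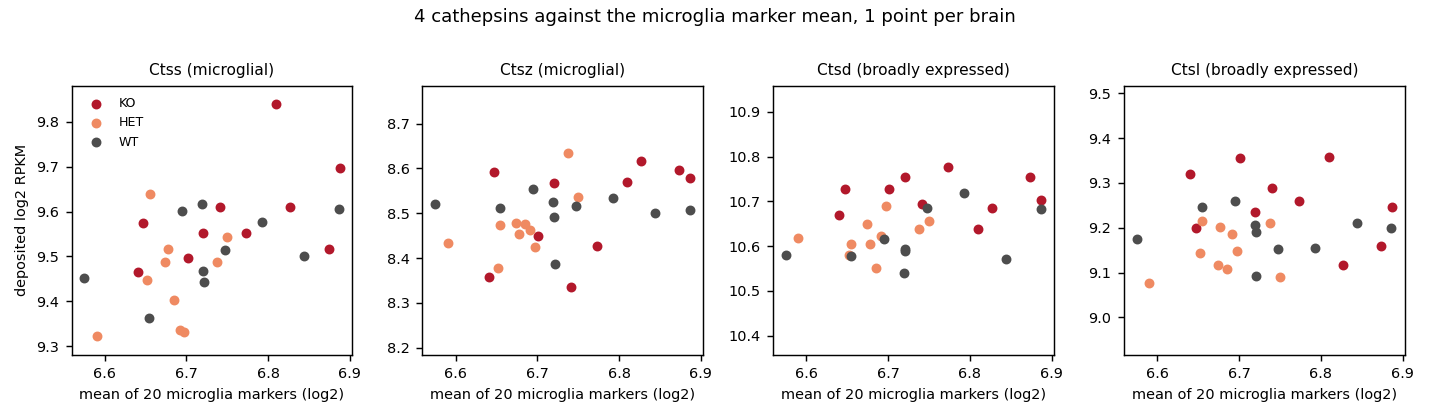
Deposited log2 RPKM of Ctss, Ctsz, Ctsd and Ctsl (y axes) against the mean log2 value of 20 microglia markers (x axes), 1 point per brain coloured by genotype. The fitted slope is 0.68 for Ctss and 0.35 for Ctsz, against 0.099 for Ctsd and -0.034 for Ctsl.

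Between brains, the residuals of the cathepsins (genotype, sex, cohort and RIN removed) were weakly related. These correlations are descriptions over 30 libraries, which share their normalization. Pearson's r had a median of 0.15 over the 45 pairs, 0.33 over the 6 pairs of microglial cathepsins, 0.19 over the 15 pairs of broadly expressed ones and 0.11 over the 24 mixed pairs. The highest was between Ctsa and Ctsz (r = 0.60, Spearman's rho = 0.60; 0.52 in cohort 2 and 0.64 in cohort 1; 0.56 without the 2 brains farthest from the median of Ctsa). Over both cohorts Ctsa had r of 0.46 to 0.60 with the 4 microglial cathepsins, but within cohorts the values were uneven. With Ctsh r was 0.83 in cohort 2 and 0.22 in cohort 1, with Ctss 0.67 in cohort 2 and 0.37 in cohort 1, and with Ctsc 0.56 in cohort 2 and 0.42 in cohort 1. The lowest was between Ctsd and Ctsh, at -0.47.

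**Figure D5:**
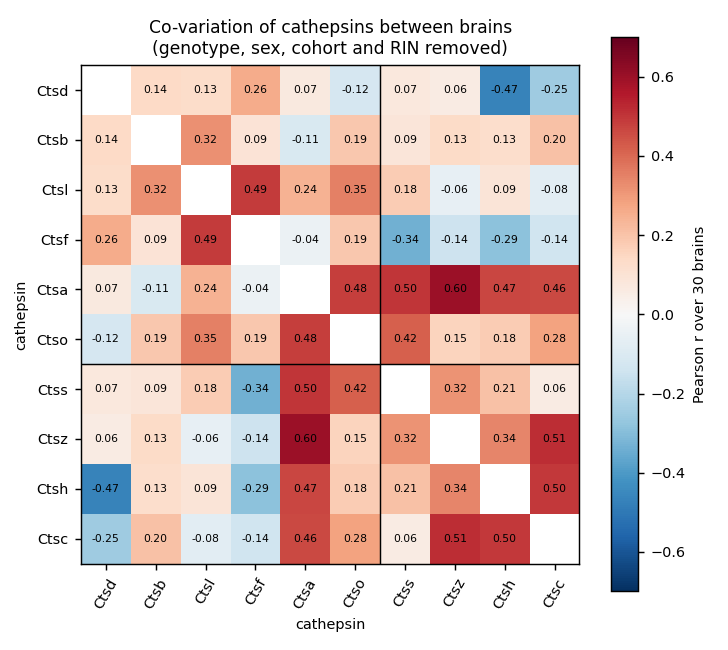
Pearson's r between the residuals of each pair of cathepsins over 30 brains, with genotype, sex, cohort and RIN removed; black lines divide the broadly expressed genes (first 6) from the microglial ones (last 4). Ctsa has r between 0.46 and 0.60 with Ctss, Ctsz, Ctsh and Ctsc, and the lowest value is -0.47 between Ctsd and Ctsh.

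Over all genes tested, those whose residuals were most like Ctss were Laptm5 (r = 0.81, rho = 0.87; 0.84 in cohort 2 and 0.82 in cohort 1; 0.83 without the 2 farthest brains), Lgals9 (r = 0.80), Mpeg1 (r = 0.77), Gm5415 (r = 0.68) and Unc93b1 (r = 0.67). For Ctsd they were Ncln (r = 0.71, rho = 0.66; 0.56 in cohort 2 and 0.81 in cohort 1; 0.63 without the 2 farthest brains), Gm24598 (r = 0.71), Tmem98 (r = 0.67), Ttyh2 (r = 0.66) and Gm20388 (r = 0.66). None of these 5 genes rose in KO against WT. Tmem98 and Ttyh2 fell in KO against WT, by 0.25 (adjusted p = 0.0021) and 0.21 (adjusted p = 3.62e-07), while Ncln had -0.0045 (adjusted p = 0.97). Without the 2 farthest brains, r with Ctsd was 0.54 for Gm24598, 0.60 for Tmem98, 0.67 for Ttyh2 and 0.52 for Gm20388. With Ctss it was 0.72 for Lgals9, 0.72 for Mpeg1, 0.53 for Gm5415 and 0.60 for Unc93b1. Gm24598 had a mean level of 0.069, near the filter, and Gm5415 one of 1.14.

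The genes that make, carry and restrain cathepsins did not pass the test in KO against WT. Of 13 other cathepsin genes listed, 2 were kept, Ctsk, the collagen-degrading cathepsin of osteoclasts, at -0.16 (adjusted p = 0.491), and Ctsw, a cathepsin of cytotoxic lymphocytes, at -0.0067 (adjusted p = 0.995). Of 17 inhibitors 7 were kept and none passed, with a median of -0.024. The cytosolic inhibitor Cstb had 0.13 ± 0.037 (adjusted p = 0.106), the secreted cystatin C gene Cst3 -0.026 (adjusted p = 0.622) and Cst7, a cystatin that enters endosomes, 0.38 ± 0.32 (adjusted p = 0.696).

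The activating and partner proteins gave 0 of 10 called and a median of -0.00067. Lgmn, the legumain that cleaves several cathepsin precursors, had -0.039 (adjusted p = 0.454), Glb1, the beta-galactosidase shielded by cathepsin A, -0.081 (adjusted p = 0.186), and Cd74, the invariant chain cut by cathepsin S, -0.17 ± 0.18 (adjusted p = 0.781). For the receptors and adaptors that sort lysosomal enzymes, 0 of 22 passed and the median was -0.010. Vps29, a retromer subunit, had 0.065 (adjusted p = 0.198), Nagpa, which uncovers the mannose 6-phosphate tag, -0.11 (adjusted p = 0.266), and Sort1, the receptor sortilin, -0.062 (adjusted p = 0.339).

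The TFEB family and its regulators had 0 of 8 kept genes called, with a median of 0.017. Tfe3, a TFEB relative, had 0.054 (adjusted p = 0.481), Zkscan3, a repressor of lysosomal genes, 0.049 (adjusted p = 0.608), and Mitf, another relative, -0.048 (adjusted p = 0.762). Of the 6 kept genes for other lysosomal peptidases none passed and the median was 0.032. Scpep1, a serine carboxypeptidase, had 0.089 (adjusted p = 0.265), Cpq, a metallopeptidase, 0.080 (adjusted p = 0.406) and the dipeptidyl peptidase Dpp7 0.043 (adjusted p = 0.731). In HET against WT and in KO against HET no gene of these 6 lists passed either.

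Among cell type markers, few besides those of oligodendrocytes passed the test in KO against WT. Of 20 microglia markers 1 rose, C1qb, a chain of complement C1q, by 0.18 ± 0.039 (adjusted p = 0.016), and the others included Tyrobp at 0.17 (adjusted p = 0.249), Itgb5 at -0.090 (adjusted p = 0.254) and Sall1 at -0.12 (adjusted p = 0.257). Of 10 astrocyte markers 1 rose, the filament protein Gfap, by 0.22 ± 0.045 (adjusted p = 0.0097). Of 7 endothelial markers 1 fell, the receptor Tek, by 0.21 ± 0.054 (adjusted p = 0.046). The others included Cldn5 at -0.44 (adjusted p = 0.057), Pecam1 at -0.17 (adjusted p = 0.093) and Ly6c1 at 0.14 (adjusted p = 0.188). Cldn5 did pass in the slope per deleted copy (-0.22 ± 0.056, adjusted p = 0.049). Its cohort interaction in KO against WT also passed (0.90 ± 0.16, adjusted p = 0.034).

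Macrophages at vessels and blood cells can also carry cathepsins. None of 6 perivascular macrophage markers passed, with Pf4 at 0.51 ± 0.18 (adjusted p = 0.206), Cbr2 at 0.54 ± 0.23 (adjusted p = 0.337) and Mrc1 at -0.11 (adjusted p = 0.709). Of 7 blood leukocyte markers 3 were kept and none passed. None of 11 neuron markers and none of 6 choroid plexus markers passed.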

How the data were processed

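RNA of 30 mouse brains was sequenced, and reads were aligned to mm10 with TopHat2 2.0.12 and Bowtie 1.1.0, per the submitters' processing notes. The authors deposited log2 RPKM after conditional quantile normalization, per the file headers. Read depth is unknown, so precision was judged from the spread between mice.

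Genes with a mean value above 0 were kept (23695 of 34871). Each was fitted in limma 3.58.1 (R 4.3.3) on genotype, cohort, sex and RIN, with eBayes and an intensity trend, two-sided, Benjamini-Hochberg over all genes kept; no pseudocount was needed. Scripts were tested on simulated data. Groups came from the genotype labels; replicate numbers follow accession order and pair nothing. The members, gene lists and tests were chosen with earlier results of these data known. Named genes were the 10 cathepsins, called genes of the lists, up to 3 uncalled genes of lowest p per list, and the 5 genes most like Ctsd and Ctss. Alternatives covered covariates, filters, moderation, scaling, cohorts, sexes and each brain left out. Promoters came from RefSeq (GRCm38.p6); proteins were not analysed here.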

Additional observations from a re-analysis of the deposited data

Results flagged for a closer look

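Of 30 sets of 10 values, each a cathepsin in a genotype, 2 held a brain set apart from the other 9 by Dixon's gap test, and chance gives about 1 in 20. Ctsc stood at 4.84 in HET replicate 2, with the next highest HET brain at 4.61. Ctsz stood at 8.39 in WT replicate 3, with the next lowest WT brain at 8.49.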

How the results depend on the processing

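The rise of Ctsd in KO against WT kept its call in 30 of 30 fits that left out a brain (change 0.084 to 0.10) and in 12 of 13 other settings with both cohorts and sexes; the exception was the added oligodendrocyte marker mean, where 0 cathepsins were called. In KO against HET the count was 0 with genotype alone, with the plate column of the library, the microglia or the oligodendrocyte marker mean added, with only those 2 genotypes fitted, and with no intensity trend, and ranged from 0 to 1 with a brain left out. Both counts were also 0 in each cohort and each sex alone. In these small changes the cause was not tested. HET against WT stayed at 0 cathepsins throughout, and the slope over copies at 1. Males against females gave 4 cathepsins with no filter on low values, where 9087 genes were called, and 0 to 1 with a brain left out (1 without HET replicate 6). Cohort 2 against cohort 1 gave 2 with the plate column added and 1 to 6 with a brain left out (3 without KO replicate 3, 1 without KO replicate 4).

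Log2 changes that did not pass in the main fit changed sign under some settings, none of them past the threshold. Not all were near 0 in the main fit. In HET against WT those of Ctss and Ctsc were -0.062 and -0.057. In KO against WT, Ctsz was -0.0053 with array weights, -0.0049 with the microglia mean, -0.040 in cohort 1 and -0.062 in males. Ctsa was -0.013 in cohort 1 and -0.012 in males. Ctsf was -0.0020 in cohort 2. Ctsc was 0.17 in cohort 2 and 0.14 in females, Ctsh 0.0039 with the plate column, 0.12 in cohort 2 and 0.070 in females, and Ctso 3.0e-05 in males and 0.084 with the oligodendrocyte mean.

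In HET against WT, Ctsd was 0.0064 with genotype alone, 0.0046 with the plate column, 0.0041 with the microglia mean, 0.034 with the oligodendrocyte mean, 0.025 in cohort 2 and 0.0050 in males. Ctsb was 0.0021 with the microglia mean, 0.0075 with the oligodendrocyte mean, 0.0015 in cohort 2 and 0.010 in males. With the oligodendrocyte mean Ctsa was 0.015, Ctsl 0.016 and Ctss 0.0045. In cohort 2 Ctsa was 0.0024, Ctsc 0.086, Ctss 0.038 and Ctsz 0.019; in females Ctsa was 0.022, Ctsc 0.090, Ctsh 0.014 and Ctsz 0.0081; in males Ctss was 0.0037. In KO against HET, Ctsc was -0.0021 and Ctso -0.0077 with the microglia mean, Ctsh -0.048 with the oligodendrocyte mean and -0.060 in cohort 1, Ctso -0.041 in females, and Ctsz -0.0022 in males.

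With a brain left out, sign also changed for Ctsc (-0.055 to 0.0082), Ctsh (-0.044 to 0.030) and Ctsz (-0.0087 to 0.018) in KO against WT, for Ctsb (-0.0072 to 0.0019) and Ctsd (-0.0085 to 0.0073) in HET against WT, and for Ctsc (-0.0054 to 0.071), Ctsh (-0.0068 to 0.063) and Ctso (-3.4e-05 to 0.031) in KO against HET. No paired analysis was possible because the labels give no replicate numbers and nothing ties a mouse of a genotype to one of another. The added library lower quartile and the alternatives for slopes, interactions, sex and cohort were chosen after seeing the data.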
